A study of Mus musculus with 12 samples.

Results

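XY gonads that lacked one or the other WT1 splice variant were set directly against each other. The compared samples were the 2 XY -KTS KO libraries and the 2 XY +KTS KO libraries, chosen by genotype and sex from the 12 libraries of the study. They held 24920 of the 71955 somatic cells of the study, which were 5361 and 5222 cells in the -KTS KO libraries and 6879 and 7458 cells in the +KTS KO libraries. The tissue was the fetal mouse gonad at E12 (23 ± 3 tail somites), dissociated with trypsin-EDTA and captured for 3' single-cell RNA sequencing on the 10x Genomics system. -KTS KO embryos carried no allele for the -KTS variant of Wt1 and +KTS KO embryos carried no allele for the +KTS variant, both as homozygous constitutive alleles on the mixed B6CBAF1/JRj background, so that every cell of the embryo carried the change. By the paper, +KTS KO gonads held 2 times the -KTS transcripts of control gonads, with similar total WT1 protein in XY gonads. The contrast thus sets gonads without -KTS against gonads with raised -KTS and no +KTS. It cannot tell the lack of +KTS from the raised -KTS. The XX libraries of the same genotypes and the XY and XX WT libraries (2 each) served as reference. By the study's sample table, each -KTS KO library pooled gonads of several embryos, and the embryos behind the +KTS KO libraries differed in their number of tail somites, with more in replicate 1. The methods call the replicates of a genotype independent. Litters are not named. The p-values measure the spread between replicate libraries, estimated over all 12 libraries together and not over the compared ones alone.

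Wt1 encodes a zinc finger transcription factor that is needed to form the gonad and the kidney. A pair of competing splice donor sites at the end of exon 9 gives a protein without (-KTS) or with (+KTS) a lysine, threonine and serine between the last zinc fingers. The -KTS form binds DNA as a transcription factor, whereas the +KTS form binds it weakly and lies in nuclear speckles with splicing factors. At this stage the supporting cells of the XY gonad become Sertoli cells, driven by SRY and SOX9, and those of the XX gonad become pre-granulosa cells, marked by FOXL2 and by RSPO1, WNT4 and β-catenin signaling. The coelomic epithelium supplies both kinds of supporting cell and part of the interstitial cells. The alternative ends of exon 9 are shown because they are the only difference in sequence between the variants that the mutants lack. In the mouse genome (GRCm38, forward strand, coding sequence, from the GENCODE M21 transcripts) exon 9 spanned chr2:105169926-105170009 in the -KTS form and chr2:105169926-105170018 in the +KTS form, and the capitals mark the 9 bases that add 3 codons.
-KTS exon 9: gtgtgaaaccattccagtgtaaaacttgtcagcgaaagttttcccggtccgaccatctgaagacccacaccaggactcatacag
+KTS exon 9: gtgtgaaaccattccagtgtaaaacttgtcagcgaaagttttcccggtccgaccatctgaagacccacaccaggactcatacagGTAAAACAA

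Wt1 itself (chr2:105126529-105173616, forward strand) was counted at its 3' end, where the variants do not differ, so that its level does not tell one mutant from the other. It reached 293 and 305 CPM in the -KTS KO libraries and 282 and 220.1 CPM in the +KTS KO libraries, where CPM is the number of unique molecular identifiers (UMIs) per 1000000 of the library's scaled total. The values did not overlap, but the difference was small and did not pass the test (log2 fold change 0.25 ± 0.18, adjusted p = 0.356, where ± is the standard error). XY WT libraries held 168 and 240.0 CPM. Uty, Ddx3y, Eif2s3y and Kdm5d, which lie on the Y chromosome, summed to between 144 and 178 CPM in the 4 mutant libraries and Xist stayed under 0.1 CPM in each, as the XY labels state. Of these 5 genes none passed the test between the genotypes.

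The +KTS KO libraries were less alike than those of any other group. Over 5684 well-counted genes, 121 differed by more than 2-fold between the 2 +KTS KO libraries, against 44 between the 2 -KTS KO libraries. Replicate 1 of +KTS KO was the library rich in immediate early transcripts, with Fos at 574 and 83.9 CPM and Egr1 at 276 and 41.8 CPM in replicates 1 and 2, against 103 and 104 and 35.1 and 54.3 in the -KTS KO libraries. Its cells were also the shallowest of the 4 libraries, with a median of 10281 UMIs per cell against 13980.5 in replicate 2 and 11991 and 16124.5 in the -KTS KO libraries. Cells with at least 3 UMIs summed over mesonephric tubule markers made up 0.644% of replicate 2 of +KTS KO and at most 0.134% of the other 3 libraries. Cells with at least 3 UMIs of the pericyte genes Rgs5, Kcnj8 and Abcc9 made up 3.23% and 5.19% of the -KTS KO libraries and 0.698% and 1.94% of the +KTS KO libraries. Of these 3 genes only Rgs5 was higher in -KTS KO, at 21.8 and 24 against 2.25 and 6.92 CPM, whereas Kcnj8 (1.08 and 1.14 against 3.44 and 5.56 CPM) and Abcc9 were lower. Without the cells of both kinds 3818 genes passed the test below, against 3783 with them. In summed cells, fewer cells of a type and less RNA per cell cannot be told apart.

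In all, 3783 of 18019 genes tested (21.0%) differed between XY -KTS KO and XY +KTS KO gonads (edgeR quasi-likelihood test, Benjamini-Hochberg adjusted p ≤ 0.05). Of these, 1716 were higher in -KTS KO (9.52% of genes tested) and 2067 were lower (11.5%). The libraries of the 2 genotypes did not overlap for 3781 of the 3783 genes, as they did not for 10022 of all 18019 genes (55.6%). Of the called genes, 1507 differed by more than 4-fold, 595 of them higher and 912 lower in -KTS KO, and the median log2 fold change over all genes was -0.02. Among genes with few UMIs the fitted fold depends on the prior count and is no bound. Without -KTS KO replicate 1 the count was 1833, without -KTS KO replicate 2 it was 2341, and with a fit to the 4 XY mutant libraries alone it was 2173.

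**Figure D1:**
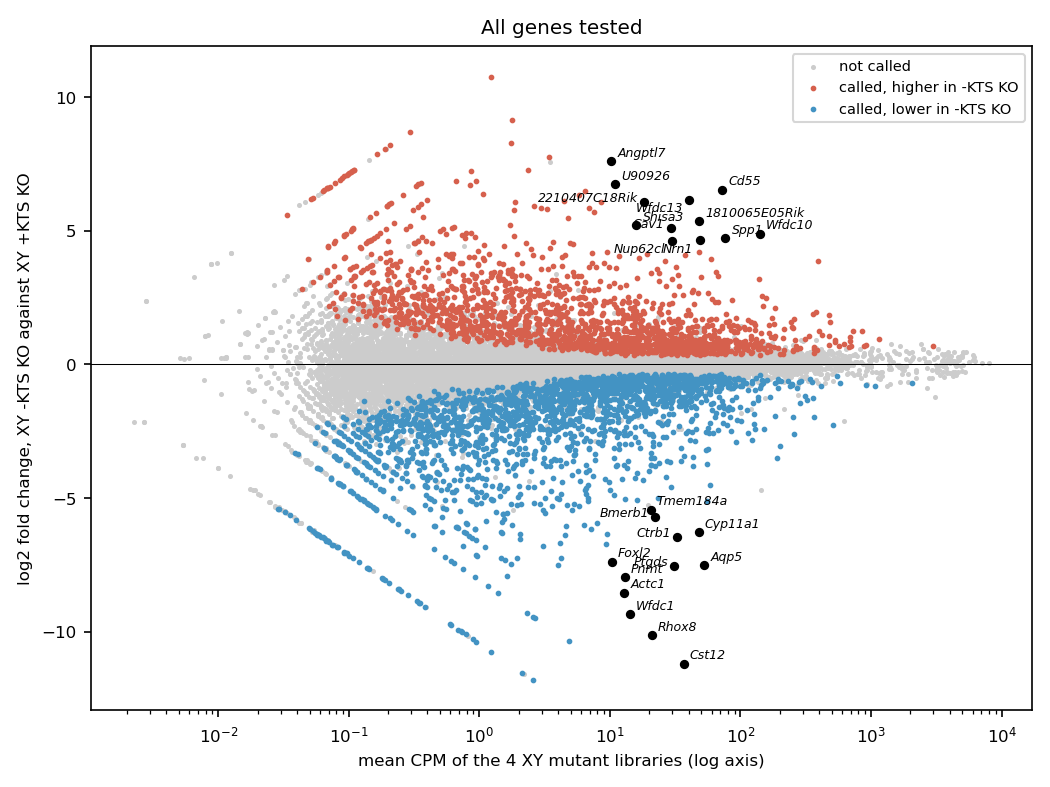
Mean CPM of the 4 XY mutant libraries (log axis) against the log2 fold change of XY -KTS KO over XY +KTS KO for all 18019 genes tested. Red and blue points are the 1716 and 2067 genes called higher and lower in -KTS KO, and the named black points are the 12 largest of each direction by the rule given with the text, which lie beyond 4.63 on either side of 0.

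The 12 genes furthest below +KTS KO in -KTS KO were taken among called genes of at least 20 CPM in the higher group whose libraries did not overlap. Cst12 (chr2:148789361-148793546), which encodes a secreted cystatin of the cysteine protease inhibitor family, had 0.0259 and 0.0335 CPM in the -KTS KO libraries and 118 and 28.6 CPM in the +KTS KO libraries, a total of 5 against 14089 UMIs. The ratio was 2311 with a 95% counting interval from 990.2 to 7119. Rhox8 (chrX:37874778-37878944, reverse strand), a reproductive homeobox gene of the X chromosome, had 6 UMIs in -KTS KO and 8224 in +KTS KO (0.0259 and 0.0446 against 56.9 and 26.7 CPM, log2 fold change -10.13 ± 0.80, adjusted p = 4.99e-05). Wfdc1, a secreted whey acidic protein family member, had 7 and 5573 UMIs (0.0648 and 0.0223 against 39.8 and 17.1 CPM). These 3 genes were thus at the edge of detection in -KTS KO. XY WT libraries held 4.19 and 3.56 CPM for Cst12, 32.6 and 55 CPM for Rhox8 and 3.06 and 2.2 CPM for Wfdc1.

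Foxl2 (chr9:98955288-98958543, forward strand), the forkhead factor that marks pre-granulosa cells, belonged to the same set, with 0.156 and 0.0892 CPM in -KTS KO and 32.2 and 8.7 CPM in +KTS KO (log2 fold change -7.39 ± 0.87, adjusted p = 0.000398). So did Ptgds, the prostaglandin D synthase of Sertoli cells (0.467 and 0.201 against 108 and 16 CPM), the water channel gene Aqp5 (0.687 and 0.468 against 119.9 and 90.6 CPM) and the chymotrypsinogen gene Ctrb1 (0.531 and 0.915 against 63.9 and 65.8 CPM). Foxl2 and Ptgds were higher in replicate 1 than in replicate 2 of +KTS KO, whereas Aqp5 and Ctrb1 lay closer together. Pnmt, which converts noradrenaline to adrenaline, was at 0.104 and 0.1 CPM in -KTS KO and 20.8 and 30.8 CPM in +KTS KO (log2 fold change -7.97 ± 0.30, adjusted p = 1.99e-06). Cyp11a1, the side-chain cleavage enzyme that starts steroid synthesis, was at 0.868 and 1.54 CPM in -KTS KO and 56.1 and 133 CPM in +KTS KO (log2 fold change -6.28 ± 0.62, adjusted p = 0.000159). Bmerb1 and Tmem184a were also among the 12, with log2 fold changes of -5.72 and -5.44. The last was the cardiac actin gene Actc1, which was high in a single library. It had 1.35 and 49.9 CPM in the +KTS KO libraries and 0.143 and 0 in the -KTS KO libraries, and its call was lost without -KTS KO replicate 1 (adjusted p = 0.0731), -KTS KO replicate 2 (adjusted p = 0.0939) or +KTS KO replicate 2 (adjusted p = 0.0579).

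The 12 genes furthest above +KTS KO in -KTS KO were taken by the same rule. Cd55, which encodes a surface inhibitor of complement, had 142 and 144 CPM in -KTS KO and 1.48 and 1.62 CPM in +KTS KO (log2 fold change 6.52 ± 0.27, adjusted p = 2.4e-06). Spp1 (osteopontin) had 164 and 130.5 against 5.29 and 5.93 CPM (log2 fold change 4.71 ± 0.33, adjusted p = 2.82e-05) and XY WT had 328 and 402 CPM, more than either mutant. Angptl7, which encodes a secreted angiopoietin-like protein, had 20.4 and 20.4 against 0.141 and 0.0722 CPM (log2 fold change 7.59 ± 0.69, adjusted p = 0.000106). Wfdc10 and Wfdc13, members of the whey acidic protein cluster, had 238 and 304 against 3.47 and 14.9 CPM and 97.2 and 62.6 against 0.573 and 1.63 CPM. Cav1, the main caveolin of plasma membrane caveolae, had 48.1 and 65.4 against 1.43 and 1.87 CPM, and Nrn1, a neurite growth factor anchored in the membrane, had 91.4 and 96.2 against 3.21 and 4.33 CPM. For each of these 7 genes the -KTS KO libraries lay far above the +KTS KO libraries. Shisa3, U90926, Nup62cl, 2210407C18Rik and 1810065E05Rik completed the 12, with log2 fold changes from 4.63 for Nup62cl to 6.74 for U90926. Of the 24 genes of both directions, 23 kept their call without each of the 4 libraries, the exception being Actc1.

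**Figure D2:**
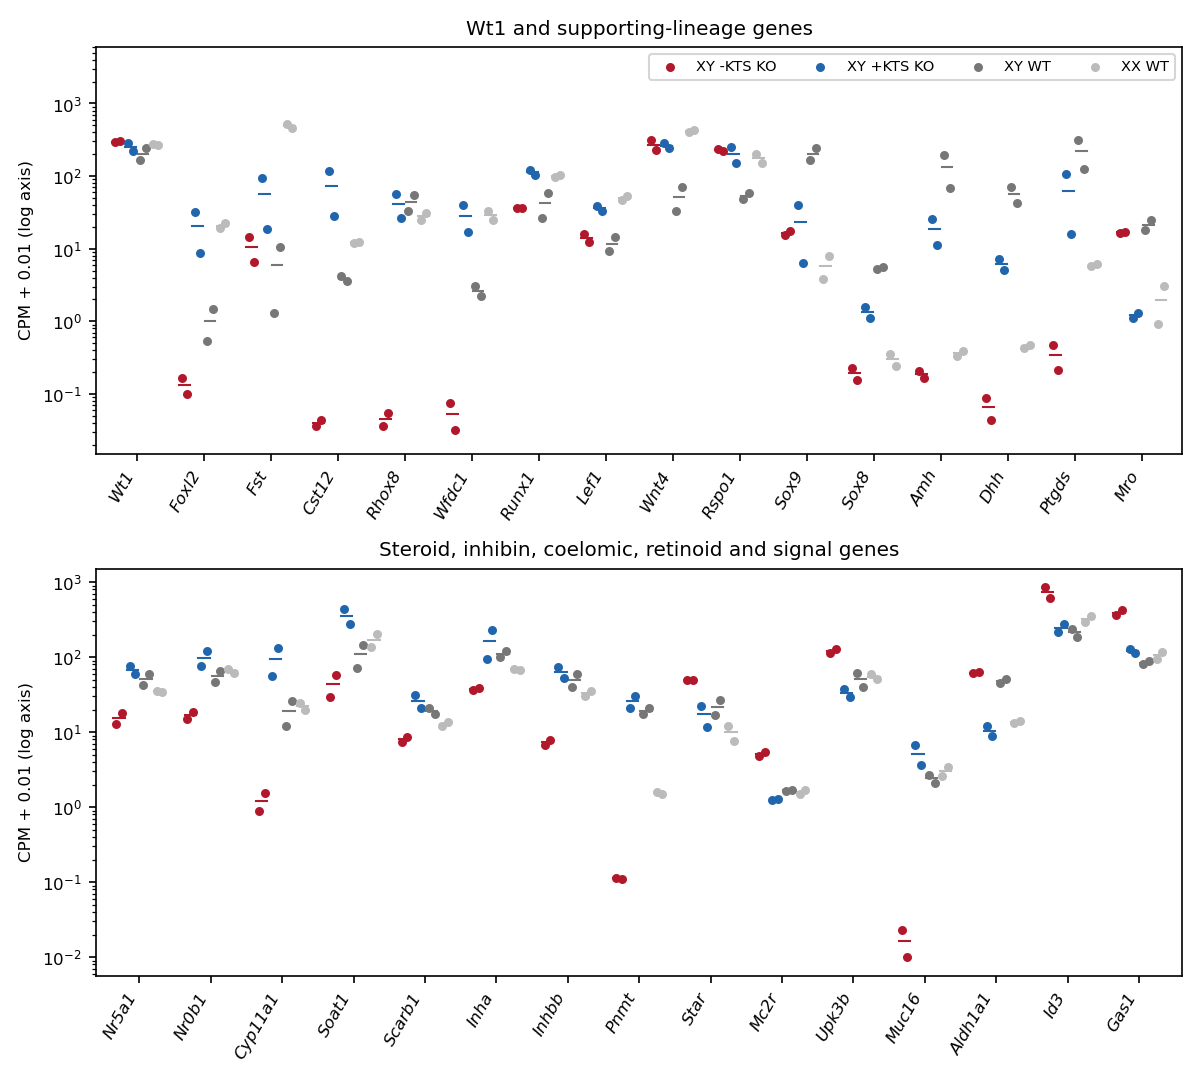
CPM with an offset of 0.01 (log axis) of the named genes in each library, with a short line at the mean of the 2 libraries of XY -KTS KO (red), XY +KTS KO (blue), XY WT (dark grey) and XX WT (light grey). Foxl2, Cst12, Rhox8 and Wfdc1 lie under 0.2 CPM in both -KTS KO libraries, whereas Wt1, Wnt4 and Rspo1 lie between 150.5 and 313 CPM in all 4 mutant libraries.

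Of 15 pre-granulosa genes, none was higher and 4 were lower in -KTS KO (Foxl2, Runx1, Lef1 and Axin2), a share of 26.7% called against 21.0% of all genes tested. Their median log2 fold change was -0.51. Runx1, a transcription factor of the early supporting lineage, had 36.4 and 36.4 CPM in -KTS KO and 122 and 103 CPM in +KTS KO (log2 fold change -1.63 ± 0.30, adjusted p = 0.00471) and XY WT had 26.8 and 57.8 CPM. Wnt4 and Rspo1, the ovarian WNT ligand and R-spondin, did not pass the test. Wnt4 stood at 313 and 228 against 282 and 245 CPM (log2 fold change 0.04 ± 0.40, adjusted p = 0.958) and Rspo1 at 238 and 221 against 252 and 150.5 CPM (log2 fold change 0.19 ± 0.30, adjusted p = 0.695), with overlapping libraries. Both signs turned without +KTS KO replicate 2 (log2 fold changes of -0.06 and -0.13), and that of Wnt4 also without -KTS KO replicate 1 (-0.20). XY WT libraries had 33.3 and 70.6 CPM of Wnt4 and 48.6 and 59.3 CPM of Rspo1.

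The calls of other pre-granulosa genes depended on which +KTS KO library was used. Fst (follistatin, a binder of activins) had 14.4 and 6.64 CPM in -KTS KO and 93.8 and 18.4 CPM in +KTS KO, with an adjusted p of 0.123 that was 0.0495 without +KTS KO replicate 2 and 0.0342 without a filter on low counts. Without that library 8 of the 15 genes were lower in -KTS KO and none was higher, the added ones being Fst, Irx3, Irx5 and Gng13. Without +KTS KO replicate 1 instead, 3 were lower (Foxl2, Runx1 and Lef1) and 4 were higher (Bmp2, Nkd1, Lgr5 and Gng13). Gng13, a G protein subunit gene, thus turned from a log2 fold change of -1.31 (adjusted p = 0.00958) to 1.46 (adjusted p = 0.0153). Its levels were 17.4 and 19.8 CPM in -KTS KO and 46.2 and 6.68 CPM in +KTS KO, the -KTS KO libraries lying between the 2 +KTS KO libraries. Irx3, an Iroquois homeobox gene of the early ovary, showed the same order, with 14.7 and 8.76 against 50.6 and 6.57 CPM. The call of Axin2, a target and feedback inhibitor of β-catenin, was lost without -KTS KO replicate 1 (adjusted p = 0.186), -KTS KO replicate 2 (0.0675) or +KTS KO replicate 1 (0.198).

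Of 17 Sertoli genes, 1 was higher and 7 were lower in -KTS KO (47.1% called, against 21.0% of all genes tested), with a median log2 fold change of -1.11. More Sertoli genes were called higher without +KTS KO replicate 1, and more were called lower without +KTS KO replicate 2. Amh, the anti-Müllerian hormone secreted by Sertoli cells, had 0.194 and 0.156 CPM in -KTS KO, 25.7 and 11.2 CPM in +KTS KO and 195 and 68.2 CPM in XY WT (log2 fold change -6.72 ± 0.78, adjusted p = 0.000367 between the mutants). Dhh, the hedgehog ligand of Sertoli cells, had 9 UMIs in -KTS KO and 1227 in +KTS KO (0.0778 and 0.0335 against 7.14 and 5.11 CPM). Sox8, a SOX factor that acts with SOX9, had 0.22 and 0.145 against 1.58 and 1.1 CPM and Aard 6.35 and 5.3 against 34 and 23.5 CPM, both under the XY WT levels of 5.19 and 5.57 CPM and 557 and 433 CPM. The summed level of the list was 75.6 and 73.9 CPM in -KTS KO, 276 and 123 CPM in +KTS KO and 2384 and 1819.9 CPM in XY WT.

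Sox9, the factor that drives Sertoli differentiation, had 15.6 and 17.4 CPM in -KTS KO, 40.3 and 6.4 CPM in +KTS KO and 165 and 241 CPM in XY WT, and the -KTS KO libraries lay between the 2 +KTS KO libraries (log2 fold change -0.50 ± 0.65, adjusted p = 0.628). Without +KTS KO replicate 1 its log2 fold change was 1.35 (adjusted p = 0.0718) and without replicate 2 it was -1.28 (adjusted p = 0.0422). Mro, a Sertoli-enriched gene, was the one higher in -KTS KO (16.3 and 17.1 against 1.09 and 1.3 CPM, log2 fold change 3.80 ± 0.45, adjusted p = 0.000416) and XY WT had 17.8 and 24.5 CPM. Sry, which is past its peak at this stage, had 0.726 and 0.725 CPM in -KTS KO and 0.259 and 0.307 CPM in +KTS KO (log2 fold change 1.35 ± 0.52, adjusted p = 0.115). Among the 7 lower genes, the call of Cst9 was lost without -KTS KO replicate 1 (adjusted p = 0.0751) or replicate 2 (0.0722), that of Nedd9 without -KTS KO replicate 1 (0.0563), and that of Aard when gated cells were put back (0.159).

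The share of cells with a UMI of these genes was also compared. For this, 5000 UMIs were drawn from every cell, and cells with fewer UMIs were dropped, which were 23.5% of +KTS KO replicate 1 and between 4.3% and 5.23% of the other 3 libraries. With 2 libraries against 2, an exact permutation test cannot go below p = 0.333, so that shares are given as descriptions, with the share in gated endothelial cells of the same library as background. Foxl2 had a UMI in 0.0975%, 0.0404%, 13.7% and 3.92% of cells in the -KTS KO libraries and then the +KTS KO libraries, against 4.17% and 1.11% of endothelial cells in +KTS KO (0.168%, 0.153%, 21.8% and 9.33% of cells without thinning). Cst12 had a UMI in 0.0195%, 0.0404%, 27.9% and 8.9% of cells (0.0373%, 0.0574%, 34.3% and 17.9% without thinning), against 5.21% and 1.11% of endothelial cells in +KTS KO. Amh had a UMI in 0.078%, 0.0808%, 8.34% and 3.85% of cells (0.28%, 0.268%, 12.3% and 8.54% without thinning), against 1.04% and 0% of endothelial cells in +KTS KO. For each of the 3 genes the -KTS KO shares were under 0.1% and the +KTS KO shares were above those of the endothelial cells. Endothelial cells numbered 83, 58, 96 and 180, so that none with a UMI in a -KTS KO library allows a share of up to 3.61% or 5.17%. Intervals and limits cover counting error only.

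In the same drawn UMIs, at least 3 Sertoli genes were found in 0.995% (exact 95% binomial interval 0.742% to 1.31%) and 0.525% (0.343% to 0.769%) of -KTS KO cells and in 8.34% (7.61% to 9.12%) and 1.98% (1.67% to 2.33%) of +KTS KO cells, against 32.3% and 34.9% of XY WT cells. XX +KTS KO had 3.40% and 1.30%. At least 3 pre-granulosa genes were also held by 380 of 439 and 110 of 141 of these XY +KTS KO cells. In -KTS KO 35 of 51 and 15 of 26 did, and in XY WT 310 of 2309 and 453 of 1673. Of Amh cells, 31.0% and 4% carried Sox9 in XY +KTS KO, against 72.8% and 84.3% in XY WT. The Sertoli score thus does not name a cell as a Sertoli cell. At least 3 pre-granulosa genes were found in 38.8% and 39.4% of -KTS KO cells, 61.7% and 43.8% of +KTS KO cells, 8.44% and 24.7% of XY WT cells and 67.9% and 69.1% of XX WT cells. In -KTS KO, Wnt4 and Rspo1 of that list were found together in 1735 of 5127 and 1350 of 4949 cells. Foxl2 was found in only 5 of all 5127 and 2 of all 4949 cells, so that the score does not name a cell as pre-granulosa. Of 720 +KTS KO cells of replicate 1 with a Foxl2 UMI, 133 also carried Sox9 (18.5%), and of 280 in replicate 2, 11 did (3.93%). Sox9 was found in 11.04% and 2.37% of all cells of these XY +KTS KO libraries. In XX WT, 1.85% and 5% of Foxl2 cells carried Sox9, against 1.75% and 4.13% of all cells. In XY WT, with 18 and 41 Foxl2 cells, 44.4% and 41.5% did, against 31.03% and 37.6% of all cells. In XY +KTS KO, Foxl2 was found together with Fst in 310 cells of replicate 1 and 40 cells of replicate 2. In XX WT, 433 of 487 and 490 of 580 Foxl2 cells carried Fst (88.9% and 84.5%), against 43.1% and 14.3% in XY +KTS KO. The share of all cells with Fst differed too, at 44.8% and 43.6% in XX WT and 18.2% and 5.41% in XY +KTS KO.

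**Figure D3:**
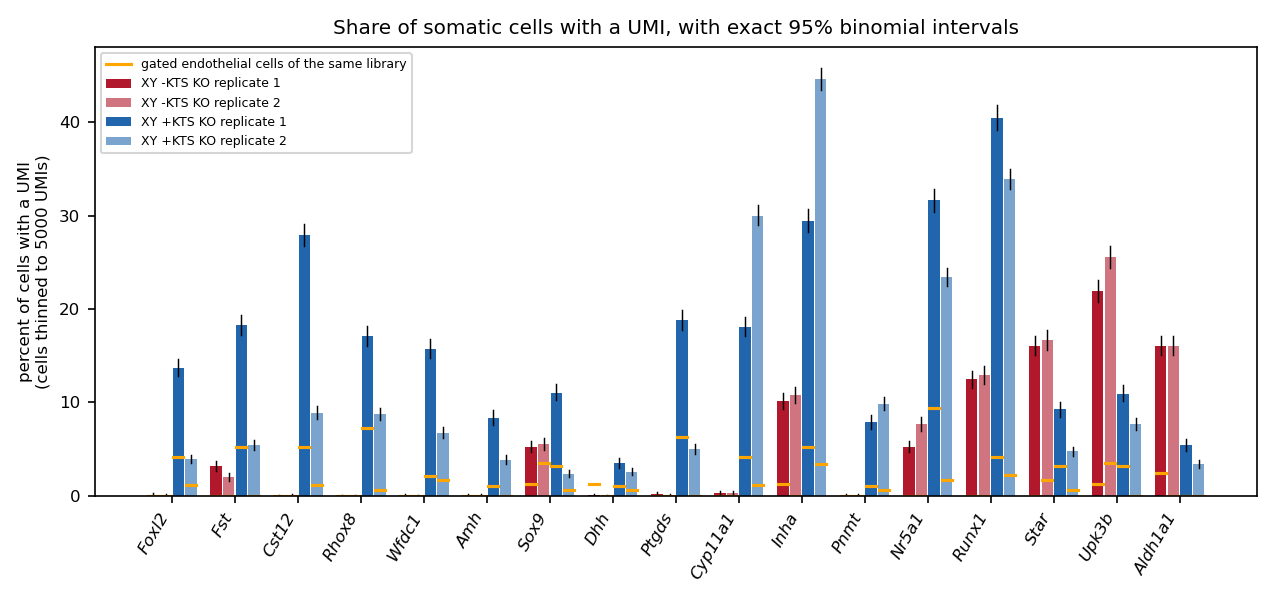
Percent of somatic cells with a UMI of each gene after thinning to 5000 UMIs per cell, in the 2 XY -KTS KO libraries (red) and the 2 XY +KTS KO libraries (blue), with exact 95% binomial intervals (black lines) and the share in gated endothelial cells of the same library (orange). The shares of Cst12, Rhox8, Wfdc1, Amh and Pnmt are at most 0.081% in -KTS KO and between 3.85% and 27.9% in +KTS KO.

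Of 15 pre-supporting genes, 1 was higher and 3 were lower in -KTS KO (26.7% called, against 21.0% of all genes tested), with a median of -0.29. Nr0b1 (DAX1, a nuclear receptor without a DNA-binding domain) had 14.9 and 18.8 CPM in -KTS KO and 76.5 and 121 CPM in +KTS KO (log2 fold change -2.56 ± 0.30, adjusted p = 0.000414). Wnt6 had 72.1 and 72.6 against 455 and 427 CPM (log2 fold change -2.61 ± 0.21, adjusted p = 5.09e-05), and Runx1 was the third. The paper reports Nr0b1 and Wnt6 as raised in pre-supporting cells of XX -KTS KO gonads and as lowered in pre-granulosa cells of XX +KTS KO gonads. Those were clusters of single cells, unlike the summed somatic cells of XY gonads here. For these genes the paper does not state a contrast of -KTS KO against +KTS KO, which is the one made here. Of the 4 called genes of the list, 3 were called in the same direction in the XX contrast. Map2k6, a kinase upstream of p38, was higher in -KTS KO by 0.61 on the log2 scale (adjusted p = 0.049), a call that was lost without any 1 of the 4 libraries (adjusted p from 0.0915 to 0.146). Of 15 transcription factors of the bipotential gonad, 2 were higher (Osr1 and Lhx2) and 1 was lower (Nr5a1), which is 20% called and no more than the share of all genes. Their median was -0.00. Nr5a1 (SF1), the orphan receptor that governs gonadal and adrenal steroid cells, had 12.7 and 18.1 against 75.5 and 59.6 CPM (log2 fold change -2.13 ± 0.23, adjusted p = 0.000284). Gata4 and Lhx9, needed for the genital ridge, gave 68.9 and 86.8 against 106 and 80.6 CPM and 339 and 335 against 278 and 220.4 CPM (adjusted p = 0.354 and 0.103). Osr1, an early marker of intermediate mesoderm, had 17.5 and 14.3 against 3.32 and 3.01 CPM, and its call was lost without -KTS KO replicate 1 (adjusted p = 0.0631) or +KTS KO replicate 1 (0.0549). That of Lhx2, at 0.985 and 0.837 against 0.238 and 0.442 CPM, was lost without -KTS KO replicate 1 (0.142), -KTS KO replicate 2 (0.077) or +KTS KO replicate 1 (0.148).

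Of 14 steroid synthesis genes tested, 2 were higher and 5 were lower in -KTS KO (50% called, against 21.0% of all genes tested), with a median of -0.34, and the same counts held without either -KTS KO library. Without +KTS KO replicate 1 they were 4 higher and 5 lower. Besides Cyp11a1, the lower genes were Soat1, which esterifies cholesterol (29.1 and 57.5 against 437 and 279 CPM, log2 fold change -3.05 ± 0.44, adjusted p = 0.0012), Scarb1, the receptor for high-density lipoprotein (7.49 and 8.68 against 31.2 and 20.9 CPM), the luteinizing hormone receptor gene Lhcgr (0.311 and 0.0892 against 2.93 and 1.99 CPM) and Insl3, a Leydig cell peptide hormone. Insl3 had no UMI in -KTS KO and 343 in +KTS KO, at least 93.8-fold higher in +KTS KO against a floor of 3 UMIs over the -KTS KO group. Star, which carries cholesterol into mitochondria, was higher in -KTS KO (49 and 50.0 against 22.6 and 11.9 CPM, log2 fold change 1.52 ± 0.32, adjusted p = 0.00906), as was the adrenocorticotropin receptor gene Mc2r (4.83 and 5.44 against 1.25 and 1.27 CPM, log2 fold change 2.02 ± 0.20, adjusted p = 0.000167).

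Inha, the inhibin α subunit gene, had 36.9 and 38.8 CPM in -KTS KO and 93.3 and 234 CPM in +KTS KO (log2 fold change -2.11 ± 0.34, adjusted p = 0.00205), and like Cyp11a1 it was higher in +KTS KO replicate 2 than in replicate 1, the reverse of Foxl2 and Ptgds. A Cyp11a1 UMI was found in 0.312% and 0.323% of -KTS KO cells and 18.1% and 30.0% of +KTS KO cells (0.597%, 0.977%, 26% and 41.3% without thinning), against 4.17% and 1.11% of endothelial cells in +KTS KO. Of the 951 and 2141 +KTS KO cells with Cyp11a1, 502 (52.8%) and 1702 (79.5%) also carried Inha. Inha was found in 29.4% and 44.6% of all cells of these libraries. Of Cyp11a1 cells, 50.1% and 48.7% carried Inha in XX WT and 63.7% and 57.7% in XY WT. There Inha was found in fewer of all cells, at 24.9% and 24.5% in XX WT and 22.7% and 29.1% in XY WT. In -KTS KO, with 16 Cyp11a1 cells per library, 75% and 43.75% did. Of the 720 and 280 +KTS KO cells with Foxl2, 232 (32.2%) and 173 (61.8%) also carried Cyp11a1, against 12.5% and 13.3% of Foxl2 cells in XX WT. The share of all cells with Cyp11a1 was 7.54% and 7.65% in XX WT, below that of XY +KTS KO. In XX +KTS KO, 59.4% and 64.7% of Foxl2 cells carried Cyp11a1. Inhbb, the inhibin and activin β subunit gene, had 6.69 and 7.87 against 73.7 and 52.7 CPM (log2 fold change -3.12 ± 0.25, adjusted p = 5.72e-05).

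Of 26 genes tested in the Wnt and R-spondin pathway, 5 were higher and 8 were lower in -KTS KO (50% called, against 21.0% of all genes tested), with a median of -0.11. The lower ones held Sp5, a target of β-catenin (3.77 and 2.19 against 51.1 and 31.9 CPM, log2 fold change -3.80 ± 0.52, adjusted p = 0.000914), Znrf3, a ligase that removes Wnt receptors (2.19 and 3.48 against 13.2 and 8.3 CPM), and the effectors Lef1 (15.8 and 12.2 against 39.2 and 33.5 CPM) and Tcf7 (7.3 and 6.44 against 22 and 18.5 CPM). Wnt6, Wnt9a, Lgr6 and Axin2 were the others. Among the higher genes, Dkk1, which blocks the LRP co-receptor, had 26.7 and 14.7 against 0.368 and 3.02 CPM (log2 fold change 3.59 ± 0.70, adjusted p = 0.00587), and the secreted frizzled-related gene Sfrp2 had 104 and 37.3 against 4.16 and 4.07 CPM. Sfrp1 was higher by 0.95 on the log2 scale. Rnf43, the partner of Znrf3, moved opposite to it (3.32 and 3.75 against 1.17 and 0.839 CPM, log2 fold change 1.82 ± 0.33, adjusted p = 0.00425), and Wnt5a had 71.2 and 86 against 51.5 and 21.5 CPM. Without -KTS KO replicate 1 the count was 2 higher and 5 lower, and without -KTS KO replicate 2 it was 3 and 7. The calls lost without -KTS KO replicate 1 were those of Wnt9a (adjusted p = 0.0673), Lgr6 (0.0656), Axin2 (0.186), Sfrp1 (0.167), Sfrp2 (0.0736) and Wnt5a (0.0823). Sfrp1, at adjusted p = 0.0428 with all libraries, was lost without any 1 of the 4 (up to 0.191), Sfrp2 also without +KTS KO replicate 1 (0.0696) or 2 (0.0504), and Wnt5a also without -KTS KO replicate 2 (0.122). Axin2 was also lost without -KTS KO replicate 2 (0.0675) or +KTS KO replicate 1 (0.198).

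Of 13 hedgehog genes tested, 1 was higher and 5 were lower in -KTS KO (46.2% called, against 21.0% of all genes tested), with a median of -0.70. Besides Dhh, the lower ones held Gli2, a transcription factor of the pathway (2.23 and 2.23 against 14 and 10.8 CPM, log2 fold change -2.48 ± 0.20, adjusted p = 6.16e-05), Gli1 (0.467 and 0.602 against 3.12 and 1.68 CPM) and Hhip, which binds hedgehog ligands (3 against 154 UMIs, a ratio of 42.1 with a counting interval from 14.1 to 206.4). Gas1, a co-receptor, was higher (360.3 and 424 against 129.8 and 114 CPM, log2 fold change 1.68 ± 0.23, adjusted p = 0.001). The call of Gli1 was lost without -KTS KO replicate 1 (adjusted p = 0.201), -KTS KO replicate 2 (0.114) or +KTS KO replicate 1 (0.162), and that of Hhip without any 1 library (adjusted p from 0.0577 to 0.189). Ptch1, the main receptor and readout, gave 7.74 and 11.9 against 23.5 and 12 CPM (log2 fold change -0.85 ± 0.36, adjusted p = 0.123), and passed the test without +KTS KO replicate 2 (adjusted p = 0.0288). Of 17 Notch genes, 1 was higher and 3 were lower (23.5% called, near the 21.0% of all genes tested), with a median of -0.30. Lfng, a fringe enzyme that modifies Notch, had 0.0907 and 0.0669 against 8.84 and 7.51 CPM (log2 fold change -6.68 ± 0.28, adjusted p = 2.4e-06), and the target genes Heyl and Hes5 had 0.259 and 0.201 against 2.71 and 4 CPM and 0.0389 and 0.0558 against 0.443 and 0.83 CPM. Notch3, a receptor of pericytes among other cells, was the higher one (7.02 and 9.25 against 4.61 and 5.34 CPM), a call lost without -KTS KO replicate 1 (adjusted p = 0.0522), -KTS KO replicate 2 (0.216) or +KTS KO replicate 1 (0.173). With gated cells put back 3 hedgehog genes were lower. Hes5 was not called when gated cells were put back (adjusted p = 0.893).

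Of 26 genes tested in the activin, inhibin and BMP list, 5 were higher and 4 were lower in -KTS KO (34.6% called, against 21.0% of all genes tested), with a median of 0.01. Id2 and Id3, helix-loop-helix inhibitors that respond to BMP, had 270.1 and 268 against 80.0 and 80.6 CPM (log2 fold change 1.74 ± 0.26, adjusted p = 0.00143) and 853 and 611 against 218 and 275 CPM (log2 fold change 1.57 ± 0.29, adjusted p = 0.00464), whereas Id1 gave 83.8 and 69.6 against 138 and 95.6 CPM (adjusted p = 0.183). Gdf6, a BMP ligand, had 9.94 and 11.8 against 1.38 and 0.848 CPM (log2 fold change 3.29 ± 0.45, adjusted p = 0.00093), and Gdf10 and the receptor gene Acvr2b were higher by 1.23 and 0.56 on the log2 scale. Besides Inha and Inhbb, the inhibitory Smad7 (55.8 and 54.5 against 159 and 101 CPM) and Amhr2, the receptor for AMH (137 and 144 against 213 and 240.4 CPM), were lower. The calls of Gdf10, Acvr2b and Amhr2 were lost without -KTS KO replicate 1 (adjusted p = 0.123, 0.0505 and 0.0606). Those of Gdf10 and Acvr2b were also lost without -KTS KO replicate 2 (0.141 and 0.0979), Gdf10 without +KTS KO replicate 2 (0.151) and Acvr2b without +KTS KO replicate 1 (0.0976).

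Of 23 genes of the PDGF, IGF and FGF families, 6 were higher and 4 were lower in -KTS KO (43.5% called, against 21.0% of all genes tested), with a median of 0.26. Fgf10, a ligand secreted by mesenchyme, had 8.22 and 11 against 0.984 and 0.965 CPM (log2 fold change 3.30 ± 0.48, adjusted p = 0.00122), Igf1 73.4 and 75.7 against 26.1 and 36.5 CPM, and Pdgfa, a ligand of Sertoli and epithelial cells, 92.9 and 85.7 against 23.2 and 50.4 CPM. Igf2, the fetal growth factor, went the other way (154 and 214 against 409 and 512 CPM, log2 fold change -1.32 ± 0.21, adjusted p = 0.0023), as did its binding protein gene Igfbp2 (51.3 and 45.1 against 296 and 215 CPM, log2 fold change -2.41 ± 0.27, adjusted p = 0.000288). The receptor genes Fgfr1 and Fgfr2 moved apart, with 36.2 and 39 against 24.3 and 19.8 CPM and 14.3 and 13 against 46.2 and 33.6 CPM. The call of Fgfr1 was lost with a fit to the 4 libraries alone (adjusted p = 0.0534). Pdgfc and Igf2r were also higher and the ERK feedback gene Spry4 lower. The calls of Pdgfa, Pdgfc and Spry4 were lost without -KTS KO replicate 1 (adjusted p = 0.0583, 0.155 and 0.19), and those of Pdgfc, Igf2r and Spry4 without -KTS KO replicate 2 (0.107, 0.0927 and 0.109) or +KTS KO replicate 1 (0.19, 0.083 and 0.372).

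Of 22 imprinted genes, which are expressed from one parental allele and often act on fetal growth, 9 were higher and 2 were lower in -KTS KO (50% called, against 21.0% of all genes tested), with a median of 0.44. Mest had 594 and 526 against 206 and 261 CPM (log2 fold change 1.26 ± 0.16, adjusted p = 0.000638), Dlk1, a Notch-related ligand of progenitors, 591 and 564 against 239 and 305 CPM, Nnat 347 and 339.8 against 152 and 214 CPM and Peg10 71.8 and 100.3 against 42.5 and 36.6 CPM. The 2 lower genes were neighbours, Igf2 and the noncoding RNA gene H19 (123 and 175 against 634 and 523 CPM, log2 fold change -1.96 ± 0.29, adjusted p = 0.00131). The count of higher genes was 2 when gated cells were put back and 4 with a fit to the 4 libraries alone. It was 5 without -KTS KO replicate 1, 3 without -KTS KO replicate 2, 5 without +KTS KO replicate 1 and 6 without +KTS KO replicate 2, with 2 lower each time. The call of Dlk1 was lost without -KTS KO replicate 1 (adjusted p = 0.112), -KTS KO replicate 2 (0.0825) or +KTS KO replicate 1 (0.144), and that of Nnat without the same libraries (0.0768, 0.0629 and 0.0951).

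Of 17 retinoic acid genes tested, 4 were higher and 2 were lower in -KTS KO (35.3% called, against 21.0% of all genes tested), with a median of 0.11. Aldh1a1, which makes retinoic acid, had 60.6 and 64.1 against 12.1 and 8.78 CPM (log2 fold change 2.58 ± 0.20, adjusted p = 4.74e-05) and XY WT had 45.4 and 51.2 CPM. The retinol carrier gene Rbp4 had 5.4 and 4.21 against 0.908 and 0.649 CPM. Crabp2, a cytoplasmic retinoic acid carrier gene, had 63.8 and 57.7 against 14.7 and 37.7 CPM, a call lost without -KTS KO replicate 1 (adjusted p = 0.18), -KTS KO replicate 2 (0.113) or +KTS KO replicate 1 (0.161). Aldh1a2, the main enzyme of the mesonephros and coelomic lining, gave 107 and 103 against 84.6 and 82.9 CPM (log2 fold change 0.33 ± 0.12, adjusted p = 0.0912). The lower genes were Aldh1a3, lost without -KTS KO replicate 2 (0.0943) or +KTS KO replicate 2 (0.0551), and the receptor gene Rxrg, lost without any 1 library (up to 0.186).

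Of 15 coelomic epithelium genes, 4 were higher and 6 were lower in -KTS KO (66.7% called, against 21.0% of all genes tested), with a median of 0.25. Upk3b, an uroplakin of mesothelium, had 116 and 129.9 against 37.6 and 29.1 CPM (log2 fold change 1.88 ± 0.24, adjusted p = 0.000685), and a UMI was found in 21.9% and 25.5% of -KTS KO cells and 10.9% and 7.64% of +KTS KO cells (29.9%, 34.7%, 14.5% and 13% without thinning, 1.2%, 3.45%, 3.12% and 0% of endothelial cells). Muc16, a mesothelial mucin, had 1 UMI in -KTS KO and 1024 in +KTS KO, a ratio of 839.9 with a 95% counting interval from 150.4 to 33207. Krt7 had 17.7 and 16.8 against 49.3 and 52.5 CPM (log2 fold change -1.56 ± 0.22, adjusted p = 0.000952) and Krt19 13.9 and 15.3 against 27.3 and 37.2 CPM, whereas Krt8 and Krt18 were higher in -KTS KO by 0.53 and 0.86 on the log2 scale. The epithelial cadherin gene Cdh1 had 4 against 223 UMIs, and Tm4sf5 37.4 and 44.6 against 103 and 89.8 CPM. Msln (mesothelin) had no UMI in -KTS KO and 32 in +KTS KO, at least 8.75-fold higher in +KTS KO. The calls of Krt8 (adjusted p = 0.171), Krt18 (0.159), Krt19 (0.0559), Tm4sf5 (0.126) and Msln (0.146) were lost without -KTS KO replicate 1. Those of Krt8 (0.121), Krt18 (0.124), Tm4sf5 (0.0589) and Msln (0.131) were lost without -KTS KO replicate 2. Krt8 (0.195), Krt18 (0.18) and Tm4sf5 (0.065) were lost without +KTS KO replicate 1 and Msln without +KTS KO replicate 2 (0.138). Lhx2, the remaining higher gene, was lost without -KTS KO replicate 1 (0.142), -KTS KO replicate 2 (0.077) or +KTS KO replicate 1 (0.148). With gated cells put back 2 genes of the list were higher and 4 lower, and Cdh1 was not called (0.817).

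Of 15 interstitial progenitor genes, 4 were higher and 2 were lower in -KTS KO (40% called, against 21.0% of all genes tested), with a median of 0.29. Nr2f1, a nuclear receptor of the interstitium, had 49.4 and 58.1 against 21.7 and 30.0 CPM (log2 fold change 1.06 ± 0.32, adjusted p = 0.042). The higher genes also held Dlk1 and Wnt5a, and Gli1 and Gli2 were the lower ones. Nr2f2, a common interstitial marker, gave 142 and 157 against 137 and 122 CPM (adjusted p = 0.582). Without -KTS KO replicate 1 or replicate 2, 1 gene was higher and 1 lower each time, as with gated cells put back, and the call of Nr2f1 was lost (adjusted p = 0.101 and 0.15), as it was without +KTS KO replicate 1 (0.203). Gli1 was lost without the same 3 libraries (0.201, 0.114 and 0.162), Dlk1 too (0.112, 0.0825 and 0.144), and Wnt5a without either -KTS KO library (0.0823 and 0.122).

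Of 23 genes for collagens and other matrix proteins, 3 were higher and 11 were lower in -KTS KO (60.9% called, against 21.0% of all genes tested), with a median of -0.69 against -0.02 over all genes. The collagen IV genes Col4a1 and Col4a2, the main collagens of basement membranes, had 23 and 28.8 against 183 and 107 CPM (log2 fold change -2.48 ± 0.28, adjusted p = 0.000338) and 12.1 and 16.4 against 90.9 and 62.5 CPM (log2 fold change -2.42 ± 0.25, adjusted p = 0.000198). Laminin gene Lama1 had 4 and 4.25 against 28.4 and 20.6 CPM (log2 fold change -2.57 ± 0.17, adjusted p = 2.12e-05) and Nid1, which links laminin to collagen IV, 5.17 and 5.86 against 24.8 and 19.8 CPM. The collagen VI genes Col6a1 and Col6a2 had 4.15 and 2.73 against 55.4 and 33 CPM (log2 fold change -3.69 ± 0.33, adjusted p = 9.95e-05) and 3.82 and 2.82 against 35.7 and 16.2 CPM. Col18a1, Col6a3, Col5a1, Lama4 and Fn1 were the other lower genes. The fibrillar Col3a1 (187 and 166 against 111 and 92.8 CPM), Sparc (1195 and 994 against 699 and 671 CPM) and Nid2 (14.4 and 12.1 against 8.12 and 8.41 CPM) were higher. In XY WT, Col4a1 stood at 125 and 100.5 CPM and Col18a1 at 204 and 177 CPM, against 10.1 and 13.9 CPM of Col18a1 in -KTS KO and 90.5 and 44.2 CPM in +KTS KO. Among the calls, Sparc, Nid2, Lama4 and Col5a1 were lost without -KTS KO replicate 1 (adjusted p = 0.106, 0.146, 0.157 and 0.0861), Col6a3, Lama4 and Col5a1 without -KTS KO replicate 2 (0.0992, 0.0936 and 0.0897), and Nid2, Col6a3, Lama4 and Col5a1 without +KTS KO replicate 1 (0.0833, 0.0708, 0.171 and 0.099). With a fit to the 4 libraries alone, none of the list was called higher and 9 were called lower (adjusted p = 0.059 for Col3a1). With gated cells put back none was higher and 10 were lower (adjusted p = 0.0783 for Col3a1 and 0.0523 for Fn1).

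**Figure D4:**
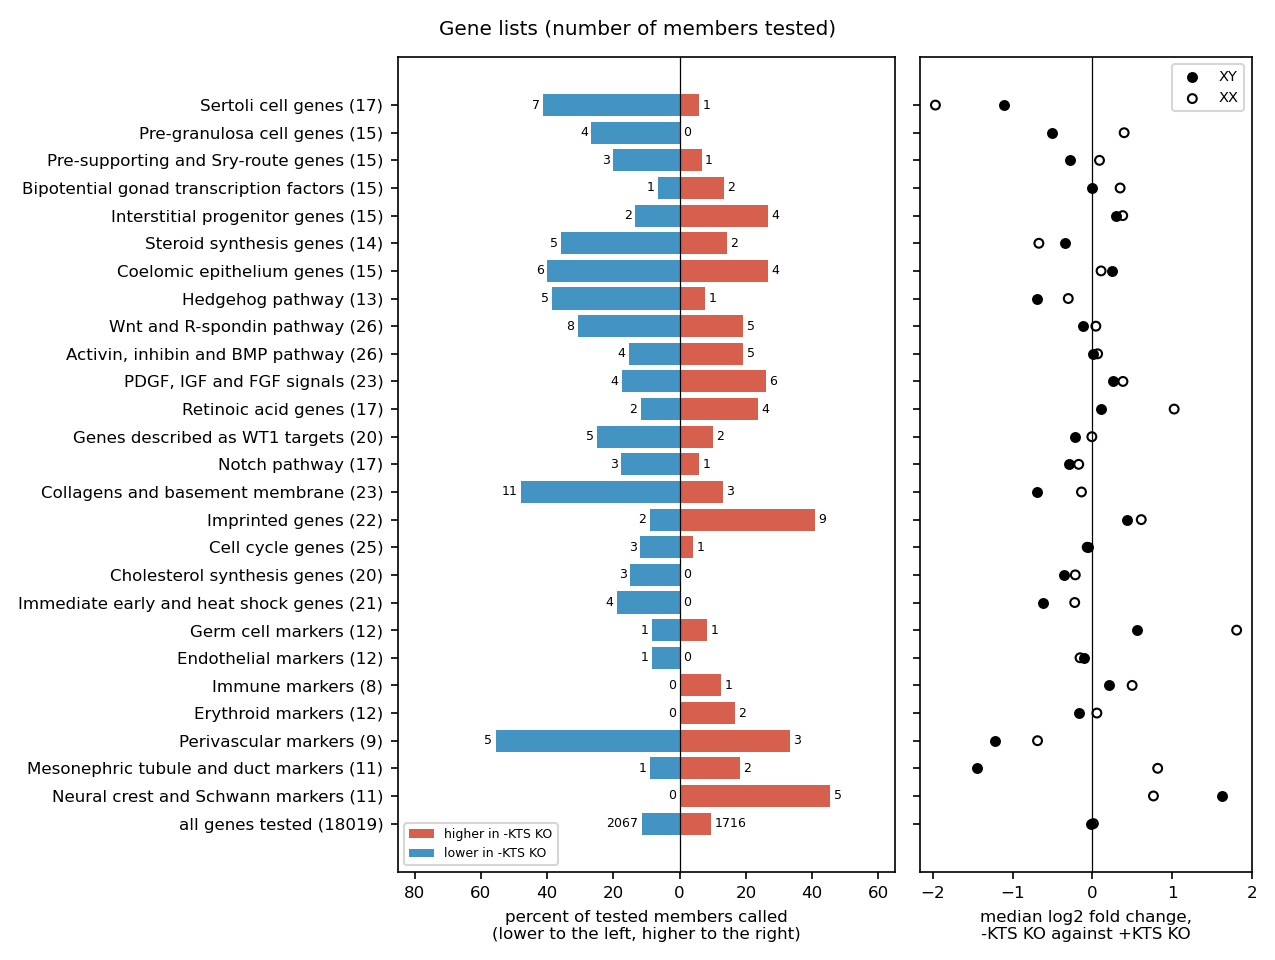
For each gene list (number of members tested in brackets), the percent of members called higher (red, right) or lower (blue, left) in XY -KTS KO than in XY +KTS KO, with the number of genes beside each bar, and on the right the median log2 fold change in XY (filled) and XX (open) gonads. The bottom row gives all genes tested, of which 9.52% were called higher and 11.5% lower.

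Of 20 genes described elsewhere as WT1 targets, 2 were higher (Pdgfa and Gas1) and 5 were lower in -KTS KO (Nr5a1, Nr0b1, Igf2, Amhr2 and Podxl), which is 35% called against 21.0% of all genes tested, with a median of -0.22. Podxl, a sialomucin of podocytes and coelomic epithelium, had 23.6 and 30.0 against 133 and 126 CPM (log2 fold change -2.27 ± 0.28, adjusted p = 0.000536). Tcf21, a transcription factor of gonadal progenitors, gave 511 and 269 against 199 and 227 CPM (log2 fold change 0.87 ± 0.46, adjusted p = 0.207). For pre-supporting cells of XX -KTS KO gonads the paper reports Pdgfa and Tcf21 as lowered and Igf2 and Nr0b1 as raised. It also reports Igf2 and Nr0b1 as lowered in pre-granulosa cells of XX +KTS KO gonads. Those were clusters of single cells, whereas all gated somatic cells of XY gonads were summed here. The values here set -KTS KO against +KTS KO, a contrast that the paper does not state for these genes. All 7 called genes of this list were called in the same direction in the XX contrast. What underlies the opposite directions was not tested. The calls of Pdgfa and Amhr2 were lost without -KTS KO replicate 1 (adjusted p = 0.0583 and 0.0606).

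Of 25 cell cycle genes, 1 was higher and 3 were lower in -KTS KO (16% called, below the 21.0% of all genes tested), with a median of -0.06. Ccnd2, a cyclin of the first gap phase, had 35.6 and 36.6 against 193 and 109 CPM (log2 fold change -2.06 ± 0.24, adjusted p = 0.000403), and Ccnd1 and the helicase gene Mcm5 were lower, with log2 fold changes of -1.31 and -1.07. Ccnd3 was higher by 0.64, a call lost without -KTS KO replicate 1 (adjusted p = 0.0705), -KTS KO replicate 2 (0.0518) or +KTS KO replicate 1 (0.0808), and Ccnd1 was lost without -KTS KO replicate 2 (0.0616). Mcm5 was not called when gated cells were put back (0.0713). Of 20 cholesterol synthesis genes, 15% were called, also below that share, none of them higher and 3 lower (Hmgcs1, Mvk and Mvd, log2 fold changes of -0.66, -0.52 and -0.75), with a median of -0.36. With a fit to the 4 libraries alone, or without -KTS KO replicate 2, none was called (adjusted p = 0.0857, 0.155 and 0.0836 in the latter), and Hmgcs1 was also lost without -KTS KO replicate 1 (0.103) or +KTS KO replicate 1 (0.0959) and Mvk without +KTS KO replicate 2 (0.092).

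Of 21 immediate early and heat shock genes tested, which respond within minutes to dissociation and other stimuli, none was higher and 4 were lower in -KTS KO (Egr2, Egr3, Zfp36 and Btg2). This was 19.05% called against 21.0% of all genes tested, with a median of -0.62. Btg2, an antiproliferative gene, had 24.3 and 37.5 against 611 and 95.9 CPM (log2 fold change -3.52 ± 0.69, adjusted p = 0.00592), lost without -KTS KO replicate 1 (adjusted p = 0.0631). Egr2, Egr3 and Zfp36 were lost without either -KTS KO library (adjusted p = 0.252, 0.168 and 0.146 without replicate 1, and 0.104, 0.104 and 0.119 without replicate 2) or +KTS KO replicate 1 (0.553, 0.246 and 0.289). With a fit to the 4 libraries alone 1 gene of the list was lower. Without +KTS KO replicate 1, 1 gene of the list was lower and 1 was higher, and without +KTS KO replicate 2, 11 were lower. The list summed to 3759.5 and 3480.5 CPM in -KTS KO and 5498 and 3458 CPM in +KTS KO.

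Markers of other cells that could lie in the gonad were read after the gate, and their part in the other results was not tested. Of 12 germ cell markers, Kit was higher (7.61 and 15 against 2.22 and 2.52 CPM) and Utf1 lower (5.72 and 4.52 against 24.5 and 51.1 CPM), and the list summed to 25 and 31 CPM in -KTS KO and 38.7 and 58.9 CPM in +KTS KO. Of 12 endothelial markers 1 was lower (Sox18), of 8 immune markers tested 1 was higher (Mrc1), and of 12 erythroid markers 2 were higher (Alas2 and Klf1). The shares called, from 8.33% of the endothelial to 16.7% of the germ cell and erythroid markers, were below the 21.0% of all genes tested. The erythroid list summed to 248 and 146 CPM in -KTS KO and 412 and 333 CPM in +KTS KO, the immune list to at most 1.53 CPM, and the endothelial list to 64.9 and 58.3 and 60.9 and 55.3 CPM. Genes of these 4 lists had set the gate. With gated cells put back the calls of Kit (adjusted p = 0.148), Utf1 (0.212), Sox18 (0.183), Mrc1 (0.105), Alas2 (0.47) and Klf1 (0.567) were lost, and the signs of Utf1, Alas2 and Klf1 turned (log2 fold changes of 0.81, -0.97 and -0.75). The calls of Mrc1, Alas2 and Klf1 were lost without +KTS KO replicate 1 (adjusted p = 0.106, 0.147 and 0.116) or -KTS KO replicate 2 (0.0612, 0.162 and 0.131), and those of Mrc1 and Alas2 without -KTS KO replicate 1 (0.115 and 0.0538).

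Of 9 perivascular markers tested, 3 were higher (Rgs5, Notch3 and Ndufa4l2) and 5 were lower (Kcnj8, Abcc9, Cspg4, Mcam and Heyl) in -KTS KO, with Higd1b at 0 UMIs in all 4 libraries. This was 88.9% called, against 21.0% of all genes tested, 27.3% of the mesonephric and 45.5% of the neural crest and Schwann markers below. Rgs5 had 21.8 and 24 against 2.25 and 6.92 CPM (log2 fold change 2.32 ± 0.46, adjusted p = 0.0066) and Abcc9 0.0389 and 0.145 against 0.605 and 0.749 CPM. The list summed to 57.6 and 55.7 CPM in -KTS KO and 39.6 and 99.3 CPM in +KTS KO, so that the +KTS KO libraries lay on either side. Of 11 mesonephric markers tested, 2 were higher (Wfdc2 and Hoxb7) and 1 lower (Ret, 2 against 114 UMIs, a ratio of 46.8 with a counting interval from 12.6 to 390.7), with sums of 132 and 109.9 and 54.7 and 120.3 CPM. More mesonephric markers were called lower without +KTS KO replicate 1, and more were called higher without +KTS KO replicate 2. Of 11 neural crest and Schwann markers tested, 5 were higher, among them Ednrb, Th, Tubb3 and Stmn2, and none was lower, with sums of 38.5 and 26.8 CPM in -KTS KO and 7.07 and 11.4 CPM in +KTS KO. Th, the rate-limiting enzyme of catecholamine synthesis, had 44 against 2 UMIs, a ratio of 26.8 with a counting interval from 6.997 to 228.4. Without -KTS KO replicate 1 the calls of Kcnj8 (0.0924), Abcc9 (0.0743), Notch3 (0.0522), Wfdc2 (0.0882), Hoxb7 (0.0875), Th (0.0543) and Ednrb (0.0635) were lost, values being adjusted p. Without -KTS KO replicate 2 those of Kcnj8 (0.0727), Mcam (0.152), Notch3 (0.216) and Ednrb (0.0546) were lost, without +KTS KO replicate 1 those of Mcam (0.16), Notch3 (0.173) and Ednrb (0.0883), and without +KTS KO replicate 2 that of Ednrb (0.0508). With gated cells put back, the call of Stmn2 was lost (log2 fold change 0.72 against 4.54, adjusted p = 0.247). Then 3 neural crest markers were higher, as were 2 perivascular ones, with 2 perivascular ones lower. The sign of Abcc9 turned (log2 fold change 0.04, adjusted p = 0.963).

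The same contrast in XX gonads, which shares no library with the XY one, was set beside it. There 3266 of 18019 genes (18.1%) passed the test, and 2382 genes were called in both sexes in the same direction and none in opposite directions. These were 63.0% of the XY calls and 72.9% of the XX calls. With a fit to the compared libraries alone the XX count rose to 3788, whereas the XY count fell to 2173. Without XX -KTS KO replicate 1 or 2 the XX count was 1972 and 1937, and without XX +KTS KO replicate 1 or 2 it was 1564 and 2177. The shared count was then 1563, 1624, 1408 and 1822. Without XY -KTS KO replicate 1 the shared count was 1595. Of the XY calls, 97.9% had the same sign in XX, against 73.7% of all genes tested. Foxl2 was at 0.298 and 0.382 CPM in XX -KTS KO and 15 and 6.57 CPM in XX +KTS KO, Cst12 at 0.0458 and 0.166 and 52.8 and 18.5 CPM, and Amh at 0.275 and 0.299 and 19.5 and 7.46 CPM. Cyp11a1 stood at 1.33 and 0.515 CPM in XX -KTS KO and 151 and 161 CPM in XX +KTS KO (log2 fold change -7.36 ± 0.65, adjusted p = 8.43e-05). For these 4 genes the libraries of the genotypes overlapped in neither sex.

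No gene passed the test of the difference between the XY and XX contrasts (sex by genotype interaction, edgeR, smallest adjusted p = 0.838). At an unadjusted p under 0.05 there were 892 of 18019 genes (4.95%). DESeq2 called 11 (956 at an unadjusted p under 0.05), among them Spp1, Cd55 and Mc2r. The XY contrast of Spp1 was 4.71 and its XX contrast 2.23 on the log2 scale, a difference of 2.48 ± 0.41 (edgeR, adjusted p = 0.838). Spp1 had 52.7 and 48.2 CPM in XX -KTS KO and 7.05 and 14.4 CPM in XX +KTS KO, so that all 4 -KTS KO libraries lay above all 4 +KTS KO libraries. The XY contrast of Cd55 was 6.52 and its XX contrast 4.94 (difference 1.58 ± 0.31, adjusted p = 0.838), and those of Mc2r were 2.02 and 0.65 (difference 1.37 ± 0.27, adjusted p = 0.838). The Sertoli list had a median of -1.97 in XX against -1.11 in XY and the pre-granulosa list 0.40 against -0.51, the difference of the medians not being tested.

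**Figure D5:**
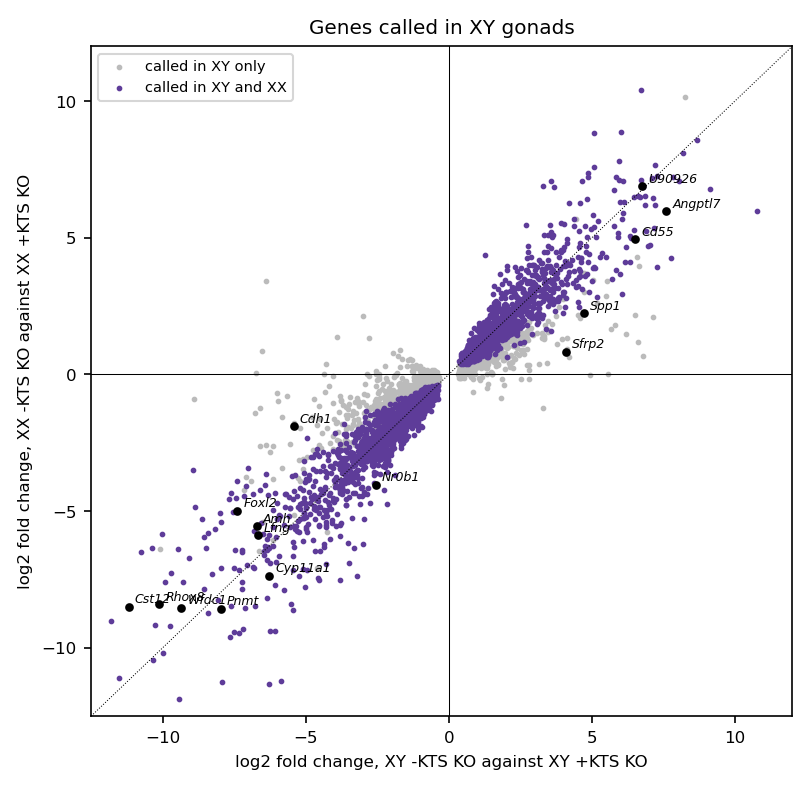
Log2 fold change of -KTS KO over +KTS KO in XY gonads (horizontal axis) and in XX gonads (vertical axis) for the 3783 genes called in XY, with genes also called in XX in purple, others in grey and the line of equal change dotted. Nearly all points (97.9%) have the same sign in both sexes, and Spp1 and Cd55 lie below the line.

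Promoters of the genes that moved were searched for GCGNGGGNG on either strand, a form of the GC-rich site that the zinc fingers of WT1 and of the EGR factors both bind, in the 250 bases before the start in RefSeq (GRCm38.p6). Any GCGNGGGNG match can also be an EGR site, and none shows binding. Among genes tested with a promoter in the table, 2620 of 13187 held a match (19.9%), against 247 of 1277 (19.3%) of those higher and 370 of 1490 (24.8%) of those lower in -KTS KO. Of the 12 genes furthest above +KTS KO 10 had a window and none held a match, and of the 12 furthest below it 8 had a window and 1 (Aqp5) held it. The windows below are those of 3 called genes of the lists with 3 matches and no annotated exon inside, all lower in -KTS KO, with matched bases in capitals. They are Runx1 (chr16:92697330-92697579, reverse strand), Wnt6 (chr1:74771642-74771891, forward strand) and Igfbp2 (chr1:72824230-72824479, forward strand), each with 3 matches, of which a pair overlaps in Runx1 and in Wnt6. Runx1 and Igfbp2 have another start in the table whose window held none.
Runx1: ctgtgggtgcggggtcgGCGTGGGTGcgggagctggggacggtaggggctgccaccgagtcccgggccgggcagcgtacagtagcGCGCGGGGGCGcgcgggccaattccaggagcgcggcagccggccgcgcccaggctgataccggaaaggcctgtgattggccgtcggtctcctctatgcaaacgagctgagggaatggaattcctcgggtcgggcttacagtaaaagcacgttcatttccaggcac
Wnt6: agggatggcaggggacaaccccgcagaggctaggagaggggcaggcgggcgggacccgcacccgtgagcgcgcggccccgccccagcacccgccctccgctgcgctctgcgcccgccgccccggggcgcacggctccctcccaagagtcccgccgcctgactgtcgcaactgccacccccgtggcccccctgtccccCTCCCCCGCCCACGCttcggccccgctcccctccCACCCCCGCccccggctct
Igfbp2: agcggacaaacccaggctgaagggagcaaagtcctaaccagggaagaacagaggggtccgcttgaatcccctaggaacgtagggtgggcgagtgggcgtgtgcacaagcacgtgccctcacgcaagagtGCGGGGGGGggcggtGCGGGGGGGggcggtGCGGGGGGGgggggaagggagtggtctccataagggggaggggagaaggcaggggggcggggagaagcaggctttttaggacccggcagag
The Runx1 and Igfbp2 matches were read on the strand shown and those of Wnt6 on its complement.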

How the data were processed

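The authors made the deposited counts, whole-number UMI counts per gene and cell barcode, with Cell Ranger (version 6.0) on mm10 per the labels, without normalization. The study removed doublets with DoubletFinder. No doublet caller was run here, and leaving out the 5% of cells with the most UMIs was an alternative. The kit version differs between the labels and the methods. Somatic cells were barcodes with 1000 or more genes and no more than 10% of UMIs from mt- genes, leaving out those at 10 or more UMIs of Dppa5a, Pou5f1, Ddx4 and Dazl, 3 or more of Cdh5 and Tie1, 3 or more of Tyrobp and Fcer1g, or over 20% haemoglobin UMIs. They held 78904268, 88505943, 84626695 and 113015648 UMIs in the XY -KTS KO and XY +KTS KO libraries. At most 26 barcodes were shared by any pair of libraries.

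UMIs were summed per library, and all 12 libraries in 6 groups were fitted with edgeR 4.0.16 in R 4.3.3 (TMM scaling, filterByExpr, quasi-likelihood test, Benjamini-Hochberg, threshold 0.05). Positive log2 fold changes are higher in -KTS KO. Named genes were Wt1, list members, and the 12 largest changes of each direction with an adjusted p ≤ 0.05, no overlap and a mean of 20 CPM or more on the higher side. A further 5 of each sign by interaction were to be named, but none passed. A few members of the lists are not reported here. The members and lists were chosen with earlier results of these data known. Counts were also simulated with 200 changed genes, drawn above a floor of level (5 draws, 17654 genes on average). The fit found 47% of the genes changed 2-fold and 91.2% of those changed 4-fold, and unchanged genes were 6.37% of its calls. The simulation gave every group the same spread between replicates. In the data the XY +KTS KO libraries differed more than those of other groups. These rates thus do not measure the error of the XY comparison. Alternatives were DESeq2 1.42.0, RLE scaling, no count filter, the compared libraries alone, a replicate block, other cell gates, thinned cells and each library left out. Positions come from GENCODE M21 (GRCm38) and promoters from RefSeq.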

Additional observations from a re-analysis of the deposited data

How the results depend on the processing

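The XY count of 3783 genes stayed between 2616 and 4496 under the alternatives within 1.5 times of it, was 2173 with the compared libraries alone, and ranged from 1833 to 4793 when 1 XY library was left out, the lowest without -KTS KO replicate 1 and the highest without +KTS KO replicate 2. The XX count of 3266 ranged from 1564 to 2177 when 1 XX library was left out. The count called in both sexes (2382) was between 1408 and 2157 when 1 library was left out, 1715 with the compared libraries alone and 1697 with all cells. The interaction count of 0 was 11 with DESeq2, 1 without a count filter, 1 with all cells and from 0 to 6 when 1 library was left out, 6 of them without XY +KTS KO replicate 1 and 2 without XX +KTS KO replicate 1. The share of XY calls that were higher in -KTS KO stayed between 41.5% and 47.5% (45.4% as reported).

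Replicate numbers did not pair the samples in the same way in all groups (correlations of the replicate differences between groups ran from -0.428 to 0.506, and that between XY -KTS KO and XY +KTS KO was -0.356). Among XX WT, XY WT and XY -KTS KO they were 0.248, 0.506 and 0.447, and the XY +KTS KO libraries ran opposite to all 3. The fit with the replicate block gave 3544 XY calls, 3082 XX calls and no interaction call. With the numbers of the XY +KTS KO libraries crossed, an alternative chosen after seeing the data, it gave 4496 XY calls and lost 3 of the calls followed below.

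Of 150 called genes followed one by one, 80 kept the call in all 14 alternatives. Leaving out -KTS KO replicate 1 or 2 lost 50 and 44 of the calls, +KTS KO replicate 1 or 2 lost 36 and 13, all cells without the gate 40, the compared libraries alone 37, thinned cells 12 and the replicate block 9, and DESeq2 none. Signs turned with all cells for Utf1 (0.81), Alas2 (-0.97), Klf1 (-0.75) and Abcc9 (0.040), the cause being the gated cells put back. Among genes not called, signs turned when 1 library was left out, from -2.11 to 0.82 for Irx3, from -1.90 to 1.42 for Irx5, from -1.31 to 1.46 for Gng13, from -0.26 to 0.98 for Nkd1, from -0.57 to 1.08 for Bmp2, from -0.20 to 0.25 for Wnt4, from -0.13 to 0.59 for Rspo1, from -1.28 to 1.35 for Sox9, from -2.47 to 0.28 for Fos and from -2.62 to 0.080 for Egr1 on the log2 scale. Bmp2 was -0.011 with all cells and -0.015 with thinned cells, and Wnt4 was -0.052 with all cells, -0.017 without the cells with the most UMIs and -0.055 with thinned cells. The number of libraries limits every test, and genes under about 1 CPM rest on few UMIs.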
